A study of Mus musculus with 12 samples.

Results

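Of 1233 differential m6A peaks in mouse islet RNA, 369 had a genomic centre that the authors' table places in an intron, and these are the peaks described here. They were taken by the table's annotation of the centre alone, which is a coordinate and uses no measured value. The table also gives each peak as 1 or more blocks of sequence, and 356 of the 369 had at least 2 blocks while 13 had 1. The 369 peaks lay in 358 genes, 11 of which held 2 such peaks. The remaining 864 listed peaks serve for comparison.

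The knockout islets, β-Mettl3-KO, came from Mettl3 flox/flox mice carrying RIP-Cre, in which the rat insulin promoter drives Cre recombinase in β-cells, so the other islet cells keep Mettl3. The controls were Mettl3 flox/flox mice without Cre. All mice were C57BL/6, on chow and 8 weeks old. Islet RNA of 12 knockout and 9 control mice was combined into 3 pools for each genotype, and the pooled RNA was broken into pieces of about 100 nt. An anti-m6A immunoprecipitate (IP) and the unselected input of each pool were sequenced as 150 bp read pairs, giving 12 libraries of 16832779 to 22257803 reads. P-values therefore measure the spread between libraries of pooled RNA within a group, and not between mice. Unless a block is named, the tests had no term for the pool, so its IP and input entered as separate libraries. In whole islets, fewer cells of a type and less RNA per cell cannot be told apart. The table holds 10 of 36 islet cell type markers, including the β-cell genes Mafa, Nkx6-1 and Ucn3.

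N6-methyladenosine (m6A) is the most abundant internal mark of mRNA. It is written by a complex whose catalytic subunit is METTL3, mostly at the adenosine of the motif DRACH, where H stands for A, C or T, R for A or G and D for A, G or T. In mature mRNA the mark is concentrated in long internal exons and around stop codons, often in the last exon, and is sparse close to exon junctions. Reads of a mature mRNA that cross a junction belong to both flanking exons. A peak on spliced RNA can therefore have blocks on each side of an intron and a genomic midpoint between them.

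The sequences below show 5 junctions that such peaks span, printed 5′ to 3′ along the RNA from GENCODE M21 transcripts on GRCm38. The 15 lower-case bases end the upstream exon and the 15 capitals begin the downstream exon, and the intron removed between them is given with each name. They are shown because the peak's centre falls in that intron, or for Plvap in the neighbouring one, while none of the bases counted do.
Otulin, intron chr15:27606462-27608591, minus strand: gggggccttgagcagGTTGAGATGTTCCTT
Frzb, intron chr2:80413473-80417892, minus strand: ggtaagaaagtcaagCGCTGGGATATGAAA
Isl1, intron chr13:116299597-116301610, minus strand: gcttttcagcaactgGTCAATTTTTCAGAA
Pdia4, intron chr6:47796904-47798364, minus strand: cagcttttaaaaaagGAAAACTAAAGCCAG
Plvap, intron chr8:71508308-71508463, minus strand: acaagacctgcgaagCTTTACTCTTCAAGC
The next 6 are the 30 bases around the DRACH nearest the midpoint of the spliced peak, with the motif in capitals. The first 3 are from peaks of several blocks and the last 3 from peaks of 1 block.
Otulin, chr15:27606237-27606266, minus strand: gggacacacatgTGACTgccaagagatgcg
Frzb, chr2:80413316-80413345, minus strand: ggccacacccacGGACTcccttctaagact
Plvap, chr8:71508214-71508243, minus strand: agtgtgctccaaGGACAaggagagcctgct
Mdm1, chr10:118147296-118147325, plus strand: cagcaagaaagcAAACAatctcagctgtca
Dst, chr1:34237790-34237819, plus strand: taggcatttcacAGACCggactttacccta
Pax6, chr2:105682784-105682813, plus strand: gagtggaaggaaGGACCggtggcactgtga

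The blocks of these peaks were exonic. Every base of all 369 peaks lay in an annotated exon on the same strand, as did every base of 863 of the other 864 peaks. With exons of protein-coding transcripts alone, 95.8% of the block bases were covered and 314 of the 369 peaks lay wholly inside. In 355 of the 356 peaks of several blocks, the genomic centre fell outside every block. Of the 430 gaps between their blocks, 389 (90.5%) matched 1 annotated intron at both ends. Each of the other 41 shared at least 1 end with an annotated intron. More of the gaps, 427, equalled a gap left after merging the exons of all transcripts of the gene. The gaps thus followed merged exons more closely than single introns, and whether single reads crossed these junctions was not tested. For 293 of the 356, all blocks fitted the exons of 1 transcript. For these 356, called spliced peaks below, the label intronic therefore describes the midpoint of the genomic span, while the blocks counted were annotated exons. Annotated exons here include those of non-coding transcripts, among them transcripts annotated as retained introns. Whether intron sequence was searched for peaks is not given in the sources used here, so the absence of bases outside annotated exons says nothing about m6A in introns.

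The spliced peaks were lopsided. Most had 2 blocks (301 peaks), 41 had 3, 10 had 4, 3 had 5 and 1 had 6. The larger end block was on the 3′ side of the junction in 293 of 356 peaks and on the 5′ side in 63. A median of 57 bases lay outside the largest block (range 1 to 1680), against 690 bases in all blocks together (range 151 to 3886), and 267 peaks had at most 100 bases outside it. In 23 peaks this overhang was 10 bases or fewer. The widest gap had a median of 2440 bases and ranged from 73 to 202215. Among the 123 other listed peaks with more than 1 block, the larger end block was on the 3′ side in 104. A median of 45 bases lay outside their largest block, so this shape was not particular to the intronic label. Their widest gap had a median of 418 bases. Otulin, a deubiquitinase of linear ubiquitin chains, shows the common form. Its 57 bases at the end of exon 6 continue into 478 bases of exon 7 of 7, with a 2130-base intron between. Foxo1, a transcription factor restrained by insulin signalling, has 8 bases upstream of a 75616-base gap, then a whole exon of 1352 bases and 800 bases of the next exon. Clta, which encodes a clathrin light chain, has the most blocks, with 37, 38, 118, 112, 54 and 32 bases.

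**Figure D1:**
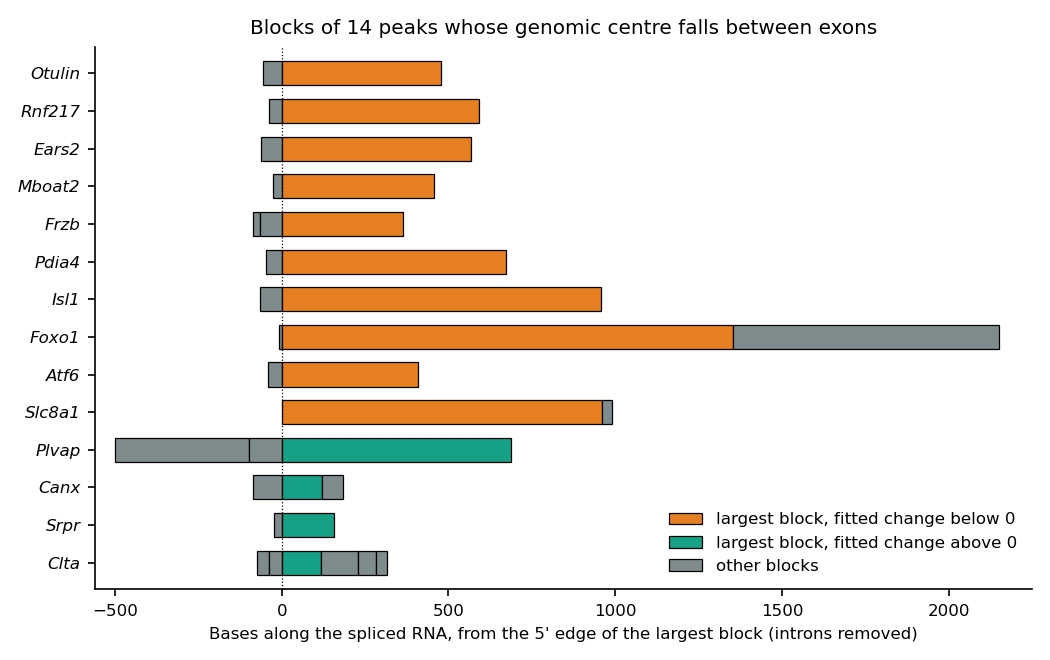
Blocks of 14 spliced peaks drawn to scale along the RNA with introns removed, in nt from the 5′ edge of the largest block. Orange and green largest blocks have fitted enrichment changes below and above 0 in knockout relative to control, and grey blocks are the others. Otulin has 57 nt before and 478 nt after the junction, and Clta has 6 blocks of 32 to 118 nt.

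The intron at the centre was usually the last one of the gene. It was the last intron for 221 spliced peaks, the first for 39 and another for 96. The first intron was at the centre of the Foxo1 peak and the last of the Otulin, Frzb, Isl1 and Pdia4 peaks. Of the 221 last-intron peaks, 207 had their spliced midpoint in the last exon and 161 of the 174 placed in a coding transcript contained the stop codon. Of the 19 first-intron peaks so placed, 13 contained the start codon and 1 the stop codon. The largest block of last-intron peaks sat in exons with a median length of 2660 nt, against 654 nt for first-intron and 645 nt for other-intron peaks. Over all 355 spliced peaks with a placed midpoint, 201 (56.6%) were at coding sequence, 116 (32.7%) at the 3′ UTR, 9 at the 5′ UTR and 29 in non-coding transcripts. Among the other listed peaks, 37.2% of midpoints were at coding sequence and 52.8% at the 3′ UTR. The stop codon lay inside 174 of 273 spliced peaks in coding transcripts (63.7%), against 371 of 739 other peaks (50.2%), and the start codon inside 41 (15%) against 40 (5.41%). Of the other peaks with more than 1 block, 59 of 75 so placed (78.7%) held the stop codon and 7 (9.33%) the start codon. Their midpoints were at coding sequence for 47.5% and at the 3′ UTR for 43.4%. The higher stop codon share was thus not particular to peaks with an intronic centre.

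**Figure D2:**
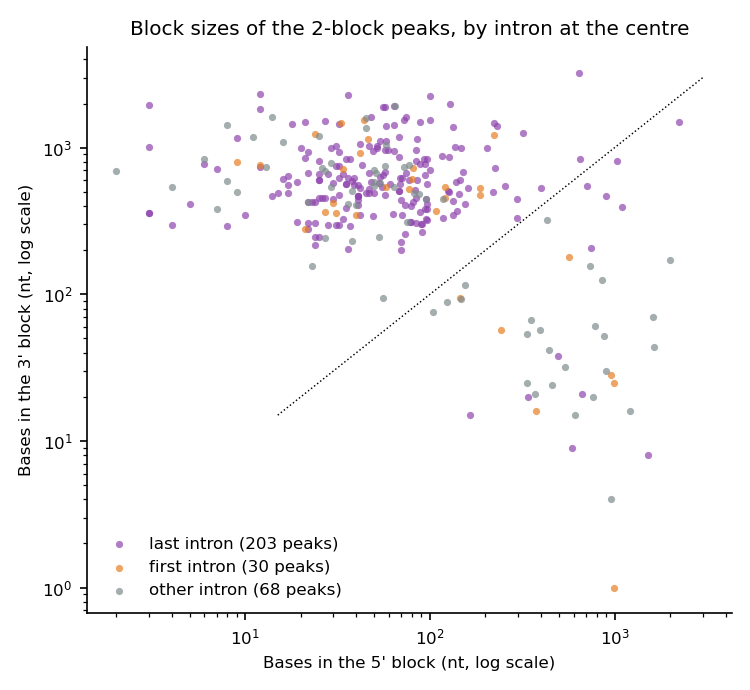
Bases in the 5′ block against bases in the 3′ block, in nt on log scales, for the 301 spliced peaks of 2 blocks, coloured by the intron at the centre. The dotted line marks equal blocks. Most last-intron peaks lie at the upper left, with a short 5′ and a long 3′ block.

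DRACH was about as frequent in the spliced peaks as in the whole list. A 100-nt window at the spliced midpoint held at least 1 DRACH on the RNA strand in 331 of 355 spliced peaks (93.2%), in 12 of 13 peaks of 1 block and in 1148 of all 1229 placed peaks (93.4%). The window averaged 2.53 ± 1.55 motifs in spliced peaks and 2.48 ± 1.46 in all listed peaks (SD over peaks, which are not replicates). Within spliced peaks there were 2.47 motifs per 100 bases in the largest block and 2.33 per 100 in the bases outside it. Pax6 was the 1-block peak without DRACH in the window, and the A of its nearest motif, printed above, lay 53 bases from the midpoint.

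Enrichment was computed as IP over input, each in RPM, the reads scaled to the library's total. Across the 369 peaks the median enrichment was 4.24, 3.27 and 3.04 in knockout pools 1 to 3, against 4.65, 7.54 and 8.17 in control pools 1 to 3. The knockout pools lay below every control pool, with control pool 1 closest to them. The mean of these medians was 3.51 ± 0.638 in knockout and 6.79 ± 1.88 in control pools (SD, n = 3 each). The IP libraries held 2.57, 2.14 and 2.02% of their reads in these peaks in knockout and 2.52, 4.04 and 4.27% in control pools, while all inputs held 0.598 to 0.783%.

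Enrichment fell in the knockout at 218 of the 369 peaks (59.1%) and rose at 5, by edgeR's quasi-likelihood test with Benjamini-Hochberg adjusted p of 0.05 or less over all listed peaks. Over the whole list, 55.6% of peaks fell and 2.27% rose. The median log2 change was -1.0 for spliced peaks, of which 215 fell and 4 rose, and -1.14 for peaks of 1 block, of which 3 fell and 1 rose. For the other listed peaks the median was -1.02, and 468 of 864 fell. The authors chose the list for change on these same libraries, and 340 of the 369 peaks (92.1%) are lower in knockout in the authors' deposited table, against 92.9% of the list, and 29 are higher, against 7.14% of the list. The knockout pools all lay below the control pools at 187 peaks (53.5% of the list did) and above at 9 (3.00% of the list).

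These calls rested on few pools. Without knockout pool 2 or 3, 22 or 27 peaks fell, and without control pool 2 or 3, 46 or 41 did, whereas 298 fell without control pool 1. All 218 kept a negative change in each of these fits, and 12 were called in all 6. Scaling to the listed peaks by TMM in place of total reads left 3 falls and 10 rises. The median change of all listed peaks was -0.07 under TMM, against -1.02 with total reads. TMM is computed on the listed peaks, which are mostly lower in the authors' deposited table. The IP libraries held 9.73, 8.54 and 7.83% of their reads in all listed peaks in knockout pools 1 to 3. In control pools 1 to 3 they held 9.15, 13.5 and 14.2%. The part of IP yield in these shares was not tested.

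Most of the peaks that fell in enrichment fell in IP too. IP alone fell at 243 of the 369 peaks (64.8% of the list) and rose at 9 (2.92% of the list). Input alone rose at 14 (6.00% of the list) and fell at 2 (0.649% of the list). Of the 218 peaks with lower enrichment, 174 also fell in IP, 14 also rose in input, 7 did both and 37 did neither. Over the whole list, 519 of 686 peaks with lower enrichment also fell in IP, 70 also rose in input, 21 did both and 118 did neither. Without knockout pool 2 or 3 or control pool 2 or 3, between 63 and 106 peaks fell in IP and between 5 and 7 rose in input, and without control pool 1, 317 and 34 did. Rises in IP then numbered 1, 5, 2 and 1, and 21 without control pool 1. Falls in input numbered 0, 1, 1 and 3 in those fits and 3 without control pool 1.

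**Figure D3:**
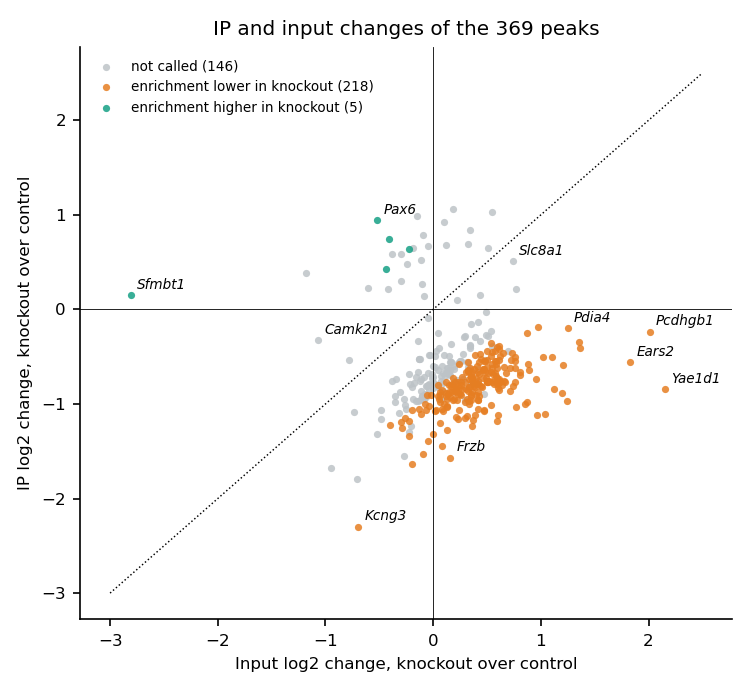
Log2 change in IP against log2 change in input, knockout over control, for the 369 peaks. Points below the dotted line of equal change have lower enrichment in knockout; 218 peaks that fell are orange, 5 that rose are green and 146 that passed neither way are grey.

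The 8 spliced peaks that fell with the smallest p were at Otulin, Rnf217, Yae1d1, Ears2, Mboat2, Dcun1d1, Frzb and Fzd6. At Otulin, enrichment was 4.52, 2.41 and 2.19 in knockout pools, against 6.76, 17.1 and 20.7 in control pools. The groups did not overlap, and the change was -2.21 ± 0.44 (log2 ± SE, adjusted p = 0.000112). Its IP averaged 20.9 ± 6.27 RPM in knockout and 41.0 ± 13.5 RPM in control pools, and its input 7.10 ± 0.907 RPM in knockout and 3.00 ± 0.759 RPM in control pools (SD, n = 3 each). IP fell by 0.97 (adjusted p = 0.00518) and input rose by 1.24 (adjusted p = 0.00485) on the log2 scale in edgeR's fit, the input call being lost without knockout pool 2, control pool 2 or control pool 3.

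Rnf217 encodes a RING-type E3 ubiquitin ligase, and its peak joins 38 bases of exon 5 to the start of a last exon of 9539 nt. Enrichment was 5.49, 4.50 and 3.01 in knockout pools, against 10.4, 22 and 22.1 in control pools, without overlap. It fell by 2.09 (adjusted p = 0.000112 in edgeR's fit). Frzb encodes a secreted Wnt antagonist. Its enrichment was 2.87, 1.54 and 1.95 in knockout pools, against 4.23, 6.83 and 9.997 in control pools, without overlap. The change was mostly in IP, at 51.1 ± 13.4 RPM in knockout and 151 ± 50.04 RPM in control pools (SD, n = 3 each), while input was 24.6 ± 4.30 RPM in knockout and 22.1 ± 2.38 RPM in control pools. Frzb enrichment fell by 1.72 and IP by 1.57 (adjusted p = 0.000526 and 2.44e-06 in edgeR's fit).

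Fzd6, a Wnt receptor of the frizzled family, had enrichment of 4.47, 3.22 and 1.26 in knockout pools, against 6.23, 9.95 and 14.8 in control pools. It fell by 2.14 (adjusted p = 0.00114 in edgeR's fit), a call lost without knockout pool 3 (adjusted p = 0.0644 in that edgeR fit). Mboat2, a lysophospholipid acyltransferase, had 6.54, 3.29 and 4.96 in knockout pools, against 9.56, 22.7 and 18.9 in control pools, and fell by 1.85 (adjusted p = 0.000265). Dcun1d1, which promotes neddylation of cullins, had 6.22, 7.21 and 3.49 in knockout pools, against 8.07, 89.3 and 20.6 in control pools, and fell by 2.08 (adjusted p = 0.000411). The groups did not overlap at any of these 3 genes, and control pool 2 of Dcun1d1 stood far above the others.

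At Ears2 and Yae1d1 the ratio rested on low control inputs. Ears2, the mitochondrial glutamyl-tRNA synthetase, had enrichment of 10.8, 8.29 and 6.98 in knockout pools, against 40.5, 94.3 and 32 in control pools. Its input counts were 43, 46 and 49 in knockout and 7, 7 and 22 in control pools, and input rose by 1.83 (adjusted p = 0.000444 in edgeR's fit) while IP did not pass (-0.56, adjusted p = 0.0889). Yae1d1, an adaptor in iron-sulphur cluster assembly in yeast, had 5.05, 5.31 and 10.7 in knockout pools, against 26, 152 and 44 in control pools. Its input counts were 41, 39 and 21 in knockout and 9, 3 and 9 in control pools, and the peak overlaps Gm48778 on the same strand. Yae1d1 enrichment fell by 3.00 (adjusted p = 0.000112 in edgeR's fit).

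At Pdia4, input rose at well-covered counts and IP did not pass (-0.20, adjusted p = 0.465 in edgeR's fit). Pdia4 is a protein disulphide isomerase of the endoplasmic reticulum, and its peak holds the stop codon. Enrichment was 5.38, 5.01 and 3.82 in knockout pools, against 8.06, 14.8 and 14.6 in control pools, without overlap. Input was 47.7 ± 7.75 RPM in knockout and 20.1 ± 2.25 RPM in control pools, whereas IP was 223 ± 29.2 RPM in knockout and 255 ± 97.9 RPM in control pools (SD, n = 3 each). Enrichment fell by 1.44 (adjusted p = 0.00238) and input rose by 1.25 (adjusted p = 0.000346) in edgeR's fit.

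Kcng3 and Camk2n1 show other combinations. Kcng3, a modulatory subunit of voltage-gated potassium channels, had enrichment of 2.02, 1.58 and 1.86 in knockout pools, against 2.71, 7.84 and 7.17 in control pools, without overlap. Its IP was 20.7 ± 4.44 RPM in knockout and 101 ± 34.0 RPM in control pools (SD, n = 3 each), a fall of 2.30 (adjusted p = 5.86e-12 in edgeR's fit), and enrichment fell by 1.60 (adjusted p = 0.00238). Kcng3 input was lower in the fit too but did not pass. Camk2n1, an inhibitor of the calcium/calmodulin-dependent kinase CaMKII, had enrichment of 6.71, 8.14 and 6.37 in knockout pools, against 5.45, 3.26 and 3.95 in control pools, without overlap, and the change did not pass (0.74, adjusted p = 0.0713). Camk2n1 input was 17.8 ± 2.12 RPM in knockout and 37.3 ± 3.89 RPM in control pools, a fall of 1.07 (adjusted p = 0.00392, lost without knockout pool 2), and IP did not pass (-0.33, adjusted p = 0.233).

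**Figure D4:**
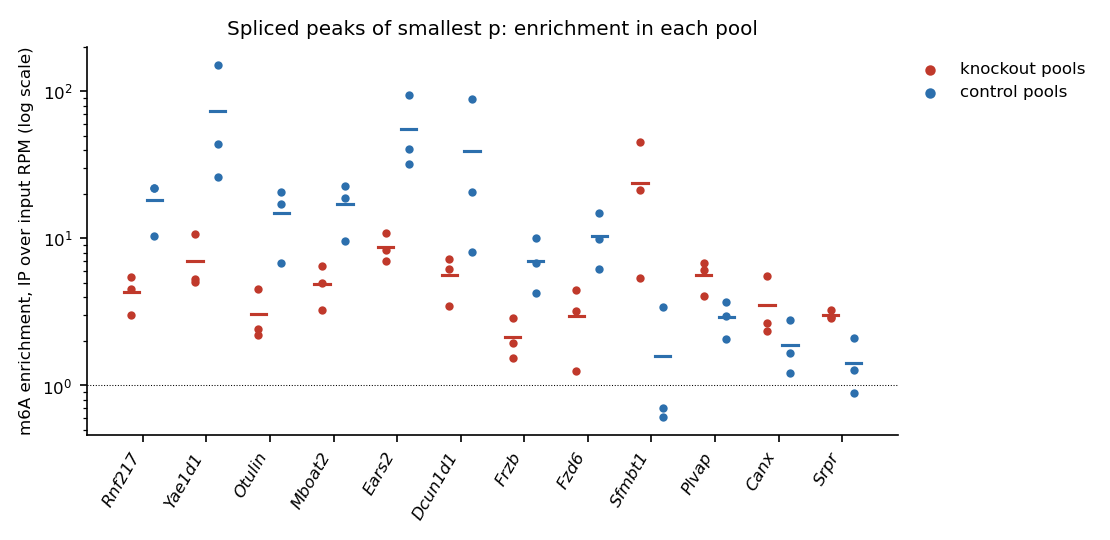
Enrichment (IP over input RPM, log scale) in each knockout pool (red, left) and control pool (blue, right) for the 8 spliced peaks that fell and the 4 that rose with the smallest p; bars are means and the dotted line marks equal IP and input. Sfmbt1 spans 5.34 to 45.4 in knockout pools and 0.606 to 3.44 in control pools.

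Rises were few, and leaving out single pools ended each of them. Plvap, the diaphragm protein of fenestrated endothelium, was the one member among the non-endocrine cell markers. Its enrichment was 4.07, 6.11 and 6.84 in knockout pools, against 3.68, 2.06 and 2.98 in control pools, without overlap, and rose by 0.87 (adjusted p = 0.0394 in edgeR's fit). Plvap input was 33.2 ± 12.6 RPM in knockout and 44.8 ± 0.955 RPM in control pools (SD, n = 3 each), and the part of endothelial cell numbers in this result was not tested. Canx, which encodes the chaperone calnexin, had 2.35, 5.52 and 2.65 in knockout pools, against 2.79, 1.66 and 1.21 in control pools, with overlap, and rose by 0.86 (adjusted p = 0.0445). Srpr, the α subunit of the signal recognition particle receptor, had 2.88, 3.24 and 2.93 in knockout pools, against 2.09, 0.891 and 1.27 in control pools, and rose by 1.15 (adjusted p = 0.049).

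Sfmbt1, a Polycomb-associated chromatin protein, held 2 spliced peaks, and the larger, with blocks of 25 and 666 bases, was not among the rises. The smaller, with blocks of 244 and 57 bases, had the largest fitted rise and the least support in reads. Its enrichment was 5.34, 45.4 and 21.3 in knockout pools, against 3.44, 0.606 and 0.698 in control pools. Its input counts were 11, 1 and 1 in knockout and 19, 59 and 13 in control pools, and no count in the table was below 1. The rise of 2.95 (adjusted p = 0.0105 in edgeR's fit) came with an input fall of 2.81 (adjusted p = 0.00485) and an IP change of 0.15. Leaving out knockout pool 2 or 3 or control pool 2 ended both Sfmbt1 calls. For Plvap, Canx and Srpr, leaving out any of those pools or control pool 3 did so, and for Srpr knockout pool 1 too.

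The spliced peaks listed as higher differed in build from those listed as lower. Of the spliced peaks, 28 were higher in knockout and 328 lower in the authors' deposited table. The largest block of the 28 sat in exons with a median length of 166 nt, and that of the 328 in exons of 1640 nt (24 and 269 peaks that fitted 1 transcript). Among the other listed peaks of several blocks the medians were 214 nt for 6 higher and 1480 nt for 76 lower peaks. The 28 covered a median of 301 bases, against 710 for the 328, and 14 of the 28 had the larger block on the 3′ side, against 279 of 328. A DRACH was in the midpoint window of 78.6% of the 28 and of 94.5% of the 328. The spliced midpoint was in the last exon for 14.3% of the 28 and 68.5% of the 328. Among all other listed peaks, 59 higher and 805 lower, the median was 375 and 631 bases, a DRACH was in 83.1% and 94.3% of windows, and the midpoint was in the last exon for 74.6% and 84.3%. Among the 221 last-intron peaks 3 were listed as higher (1.36%), against 7 of 39 first-intron (17.9%) and 18 of 96 other-intron peaks (18.8%). These shares were not tested, since peaks are not replicates.

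Levels and falls also varied with the intron at the centre. The mean of the pool medians was 3.84 ± 0.636 in knockout and 8.29 ± 2.61 in control pools for last-intron peaks (SD, n = 3 each), 2.81 ± 0.678 in knockout and 4.10 ± 0.529 in control pools for first-intron peaks, and 3.18 ± 0.362 in knockout and 5.44 ± 1.28 in control pools for the others. Enrichment fell at 151 of 221 last-intron peaks (68.3%), 18 of 39 first-intron peaks (46.2%) and 46 of 96 other-intron peaks (47.9%), with median log2 changes of -1.06, -0.85 and -0.84. Under TMM scaling these medians were -0.09, 0.10 and 0.10, and 3, 0 and 0 peaks fell. Median input counts were 158, 276 and 203 per library in the 3 classes, and the part of depth in these differences was not tested.

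Peaks across very wide gaps had low enrichment. The 44 spliced peaks with a gap over 10000 bases had a mean of pool medians of 1.91 ± 0.488 in knockout and 3.70 ± 0.941 in control pools, against 3.69 ± 0.650 in knockout and 7.26 ± 2.06 in control pools for the 312 with narrower gaps (SD, n = 3 each). Their median input count was 668 per library, against 155. Their median log2 change was -1.01, beside -1.0 for the narrower ones, and 28 of 44 fell, beside 187 of 312. Under TMM scaling both medians were -0.05, and 0 of the 44 and 3 of the 312 fell. The part of depth in these differences was not tested.

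At 3 spliced peaks, all with gaps over 10000 bases, IP was below input in all 6 pools, which held for 3 of the 864 other peaks. Slc8a1, the sodium-calcium exchanger, has the widest gap, 202215 bases, with 961 bases on its 5′ side and 28 on the 3′ side. Its enrichment was 0.359, 0.326 and 0.253 in knockout pools, against 0.355, 0.352 and 0.368 in control pools, and the groups overlapped (-0.23, adjusted p = 0.519 in edgeR's fit). The authors' deposited table gives this Slc8a1 peak a fold enrichment of 10.6, on a scale whose reference is not stated, and a lower level in knockout. Its input was 680 ± 148 RPM in knockout and 408 ± 30.5 RPM in control pools (SD, n = 3 each), which did not pass (0.74, adjusted p = 0.0513). Arhgef12, a guanine nucleotide exchange factor named after its values were seen, and Setbp1, a SET-binding protein, were the other two, at means of 0.373 and 0.430 in knockout and 0.533 and 0.518 in control pools.

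The 13 peaks of 1 block lay in exons of GENCODE transcripts as well, although the authors' table has their centres in introns. The spliced midpoint of 10 was in the last exon of an annotated transcript and that of the other 3, Dst, Pax6 and Lmo7, in the first exon of one. Upp2 and Pax6 were wholly outside the exons of protein-coding transcripts, the Pax6 peak lying in a transcript annotated as a retained intron. Their mean input counts were 14.7 to 475 per library. All but Pax6 had a negative fitted change, and knockout pools lay below all control pools at 7 of the 13 (53.8%, beside 53.5% of the list).

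Mdm1, a microtubule-binding protein of centrioles, has its peak of 687 bases across the stop codon of a 3-exon isoform, Mdm1-208. Enrichment was 1.82, 1.08 and 1.62 in knockout pools, against 4.79, 2.99 and 7.70 in control pools, without overlap. IP was 13.9 ± 5.30 RPM in knockout and 38.0 ± 9.55 RPM in control pools (SD, n = 3 each). Enrichment fell by 1.53 (adjusted p = 0.0052) and IP by 1.45 (adjusted p = 9.44e-05) in edgeR's fit, and the first call was lost without knockout pool 2 or control pool 3.

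Dst encodes dystonin, a linker between cytoskeletal networks, and its peak covers 2190 bases of a 2308-nt first exon of Dst-220. Enrichment was 5.85, 4.13 and 4.84 in knockout pools, against 6.84, 12.4 and 9.51 in control pools, without overlap. It fell by 0.94 (adjusted p = 0.0285 in edgeR's fit, 0.00 under TMM scaling), a call lost without knockout pool 2 or 3 or control pool 2 or 3. Pcdhgb1, a γ-protocadherin of neuronal cell contacts whose peak overlaps Pcdhga4 on the same strand, had 5.19, 7.63 and 2.99 in knockout pools, against 13.7, 12 and 146 in control pools. The last value rests on an input count of 1, the Pcdhgb1 input counts being 27, 9 and 35 in knockout and 7, 9 and 1 in control pools. The fall of 2.24 (adjusted p = 0.0135 in edgeR's fit) was lost without control pool 3, knockout pool 2 or knockout pool 3.

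Pax6, a transcription factor of endocrine identity, held the single rise among the 1-block peaks, in a peak of 181 bases inside the 1424-nt first exon of Pax6-222. Enrichment was 2.58, 5.03 and 4.03 in knockout pools, against 2.17, 1.46 and 0.692 in control pools, without overlap. IP was 7.03 ± 0.221 RPM in knockout and 3.65 ± 1.09 RPM in control pools, and input 1.95 ± 0.649 RPM in knockout and 2.80 ± 0.788 RPM in control pools (SD, n = 3 each). Enrichment rose by 1.46 (adjusted p = 0.0422) and IP by 0.94 (adjusted p = 0.0497) in edgeR's fit. The enrichment call was lost without knockout pool 2 or 3 or control pool 2 or 3.

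The other 9 did not pass in enrichment. Socs2, an inhibitor of cytokine and growth hormone signalling, had 2.45, 3.73 and 2.61 in knockout pools, against 2.95, 11.6 and 5.46 in control pools (-1.08, adjusted p = 0.0518 in edgeR's fit), while its IP fell by 1.30 (adjusted p = 0.00138). Ppp2r1b, a scaffold subunit of phosphatase PP2A, had 7.26, 5.55 and 5.51 in knockout pools, against 6.24, 12.7 and 15 in control pools (-0.87, adjusted p = 0.0617), and its IP fell by 0.95 (adjusted p = 0.00509). Trak1, a mitochondrial transport adaptor, also fell in IP (-0.73, adjusted p = 0.0347). Lmo7 enrichment changed by -1.15 (adjusted p = 0.0584), with knockout pools at 1.66, 1.59 and 0.752, against 2.35, 3.47 and 3.03 in control pools.

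**Figure D5:**
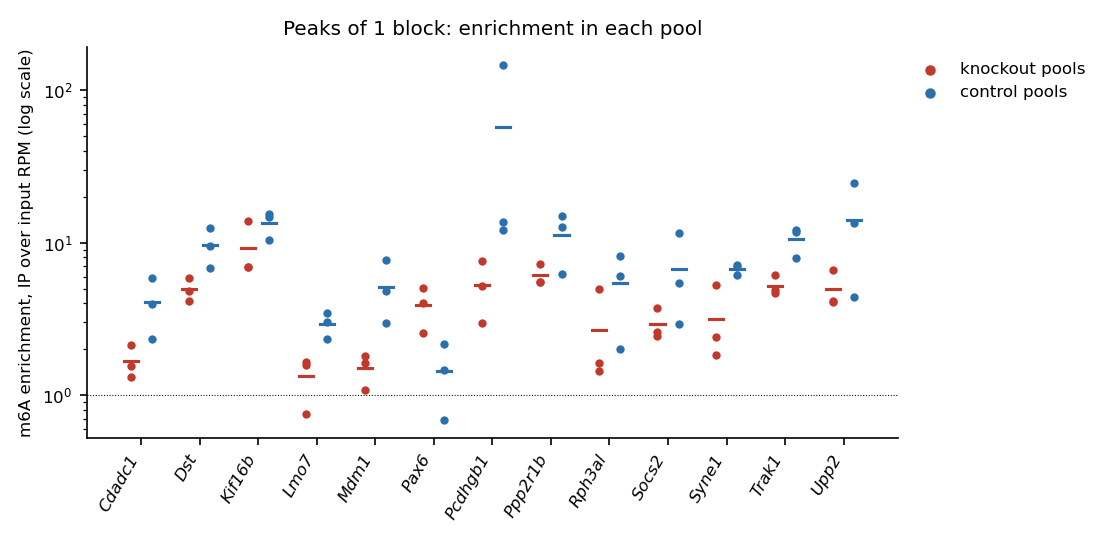
Enrichment (IP over input RPM, log scale) in each knockout pool (red, left) and control pool (blue, right) at the 13 peaks of 1 block; bars are means and the dotted line marks equal IP and input. Pax6 is the peak with its knockout pools above its control pools.

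Genes of β-cell function appeared in small numbers. The counts of each gene list below stand beside 55.6% lower, 2.27% higher and a median log2 change of -1.02 over all listed peaks, and were not tested. Of 31 β-cell transcription factors, 14 were in the list and 5 held an intronic-centre peak, of which 4 fell and 1, Pax6, rose, with a median log2 change of -0.91. Isl1, a LIM-homeodomain factor, had enrichment of 7.06, 5.05 and 3.41 in knockout pools, against 4.69, 11.7 and 13.3 in control pools. The Isl1 groups overlapped through control pool 1, and enrichment fell by 0.99 (adjusted p = 0.0226 in edgeR's fit, a change of 0.02 under TMM scaling). Foxo1 had 1.64, 1.27 and 1.16 in knockout pools, against 1.66, 2.63 and 3.50 in control pools, and fell by 0.91 (adjusted p = 0.0273, 0.05 under TMM scaling). St18, a zinc-finger factor with only 3 bases before its junction, had 2.14, 1.75 and 0.837 in knockout pools, against 3.13, 3.32 and 3.39 in control pools, and fell by 1.17 (adjusted p = 0.0251). These 3 calls were lost without knockout pool 2 or 3 or control pool 2 or 3.

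Of 33 genes of insulin granules and exocytosis, 3 held such peaks and 1 fell. Syt14, a synaptotagmin family protein, had 5.73, 4.34 and 2.54 in knockout pools, against 5.20, 17 and 14.2 in control pools, and fell by 1.59 (adjusted p = 0.00213 in edgeR's fit), a call lost without knockout pool 3. Rph3al, a Rab effector of exocytosis, has a 1-block peak with 1.62, 1.44 and 4.96 in knockout pools, against 2.00, 6.06 and 8.19 in control pools (-1.14, adjusted p = 0.0584). Syt13, another synaptotagmin family protein, changed by -0.59 in enrichment (adjusted p = 0.116) and fell by 1.07 in IP (adjusted p = 0.000411).

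Of 34 genes of excitability and calcium handling, 3 held peaks. Atp2b1, a plasma membrane calcium pump, fell by 0.98 (adjusted p = 0.034) and Cacna2d1, a calcium channel auxiliary subunit, by 0.87 (adjusted p = 0.0437) in edgeR's fit, while Slc8a1 did not pass. Among 28 receptors and cAMP genes, 1 of 4 peaks fell, at Prlr, the prolactin receptor (-0.95, adjusted p = 0.0238). Crebbp, a histone acetyltransferase, and 2 peaks of Casr, the calcium-sensing receptor, had changes of -0.57, -0.53 and -0.55 that did not pass. Under TMM scaling Cacna2d1 and Prlr changed by 0.12 and 0.06.

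The list of 29 unfolded protein response and endoplasmic reticulum genes held 5 peaks, of which Atf6 and Pdia4 fell, Canx rose and Pdia3 and Ern1 did not pass. Atf6, a membrane-bound stress sensor, has a 37018-base gap and enrichment of 0.720, 0.638 and 0.464 in knockout pools, against 1.20, 1.39 and 1.69 in control pools. Its knockout IP was therefore below input in every pool, and the fall was 1.27 (adjusted p = 0.00953 in edgeR's fit), lost without knockout pool 2 or 3 or control pool 3.

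Both m6A readers with such peaks went opposite ways in IP. Ythdf1, a cytoplasmic reader, had enrichment of 4.67, 4.66 and 3.14 in knockout pools, against 6.26, 10.7 and 9.95 in control pools, and fell by 1.14 in enrichment and 0.66 in IP (adjusted p = 0.0167 and 0.0314 in edgeR's fit). Ythdc1, the nuclear reader, had 7.52, 15.3 and 6.01 in knockout pools, against 6.63, 3.82 and 3.73 in control pools. Its enrichment change of 0.82 did not pass (adjusted p = 0.0685), while its IP rose by 0.93 (adjusted p = 0.00557).

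Of a chosen list of 43 ubiquitin ligases and deubiquitinases, 4 held such peaks. The list is not complete, and leaves out Otulin and Rnf217, described above. Trip12 (-1.08, adjusted p = 0.0252 in edgeR's fit), Usp47 (-1.20, adjusted p = 0.0173) and Birc6 (-0.86, adjusted p = 0.0395, 0.12 under TMM scaling) fell. Huwe1, a HECT-domain ligase with a 4-block peak, changed by 0.50 in enrichment (adjusted p = 0.249) and rose by 0.84 in IP (adjusted p = 0.0128). Of 53 chromatin regulators, 6 held peaks and 1 fell, at the remodeller Chd6 (-1.01, adjusted p = 0.0249). Arid1a, a SWI/SNF subunit, had 10.4, 9.10 and 9.13 in knockout pools, against 12, 13.6 and 20.9 in control pools, and did not pass in enrichment (-0.69, adjusted p = 0.0777) although its IP fell by 0.65 (adjusted p = 0.0231). Of a chosen list of 46 splicing and RNA-binding genes, 2 were among all listed peaks and none held an intronic-centre peak. That list is not complete, and the members Sf3b2 and Cdc5l lie outside it. The calls at Prlr, Ythdf1, Trip12, Usp47, Birc6 and Chd6 were each lost without knockout pool 2 or 3 or control pool 2 or 3, and those at Atp2b1 and Cacna2d1 also without knockout pool 1.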

How the data were processed

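The authors deposited 1 table of differential m6A peaks with, for each of 12 libraries, a read count per peak and total reads; per the file headers the RPM values are counts scaled to total reads. The deposited fold enrichment (a ratio) and log2 fold change are the authors' own. Build GRCm38.p6 and the tools BWA 0.7.12, HOMER 4.9.1 and fastp 0.19.11 come from the submitters' processing notes, without their roles. What called the peaks is not given in the sources used here. Left unused were 6 deposited columns that hold enrichment pool by pool.

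Blocks were placed on GENCODE M21 exons and transcripts (GRCm38). Counts of all 1233 peaks entered a quasi-likelihood fit of the 4 groups (edgeR 4.0.16, R 4.3.3) with total reads as library sizes, no filter and adjustment over all peaks; changes are knockout over control. In simulated data for the enrichment comparison (1233 peaks), 26.4% of changes of log2 size 1 and 89.9% of size 2 were recovered. The simulation changed a minority of peaks, up and down alike, in knockout IP only and with 1 common spread. The listed peaks are mostly lower in knockout, so these rates do not give the power of the test here. Of 105 input counts of 30 or less in these peaks 95 were odd, so values near the floor of 1 are uncertain. An IP library and an input library of 1 genotype were paired as 1 pool where their titles share a number. The correlations of their deviations from the group means were -0.074 to 0.065, and between genotypes -0.331 to 0.100.

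The members, gene lists and markers were chosen with earlier results of these data known. Genes were named by rule: the 8 lower and 4 higher of smallest p among spliced and among 1-block peaks, the 4 widest and the 3 with most blocks, the 4 of smallest input p each way, and up to 4 per list by absolute change. Some of these are given only by number. Some results that the rule takes in are not reported here.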

Additional observations from a re-analysis of the deposited data

How the results depend on the processing

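Scaling and single pools set how many peaks passed, while the medians of both classes stayed below 0 under TMM, the leave-outs, the input minimum and the block, the settings they were run in. Under TMM, 3 intronic-centre peaks fell and 10 rose in enrichment, 9 fell and 21 rose in IP and 8 fell in input; under DESeq2 with its own size factors the counts were 5, 19, 12, 25 and 16. The medians under TMM were -0.05 for spliced and -0.15 for 1-block peaks. Leaving out each pool gave 22 to 298 falls and 0 to 18 rises in enrichment, 63 to 317 falls and 1 to 21 rises in IP, and 0 to 3 falls and 5 to 34 rises in input. With the pool as a replicate block, 168 peaks fell, each of them also called without it, and 3 rose in enrichment, and 26 of 33 named calls held. Those that did not were Canx (adjusted p = 0.0573 in edgeR's fit), Srpr (0.0609), Isl1 (0.0538), Atp2b1 (0.053), Cacna2d1 (0.0727), Prlr (0.0512) and Birc6 (0.0675). Of the same 33 named calls, only 6 held under TMM and 9 under DESeq2 with its own size factors. Without knockout pool 2 or 3, 11 and 10 of them held, and without control pool 2 or 3, 14 and 12. With the number as a block across genotypes, 8 peaks rose in input. No pair of same-numbered libraries deviated together clearly enough to establish pairing. DESeq2 with total reads, the minimum mean input count of 10 and counting identical rows once kept every count within 1.5 times.

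Under TMM and DESeq2 with its own size factors, the enrichment change turned positive at Dst (0.00 and 0.03), Ppp2r1b (0.12 and 0.15), Slc8a1 (0.66 and 0.69), Setbp1 (0.60 and 0.63), Robo1 (0.09 and 0.12), Erlin2 (0.54 and 0.57), Srpk2 (0.14 and 0.17), Col6a6 (0.16 and 0.18), Isl1 (0.02 and 0.04), Foxo1 (0.05 and 0.07), Syt13 (0.32 and 0.35), Cacna2d1 (0.12 and 0.14), Prlr (0.06 and 0.08), Crebbp (0.37 and 0.39), Casr (0.36 and 0.39, and 0.39 and 0.42), Ern1 (0.08 and 0.11), Setd2 (0.15 and 0.18), Arid1a (0.25 and 0.28), Chd9 (0.32 and 0.35) and Birc6 (0.12 and 0.15), and at Atp2b1 under DESeq2 (0.00). Both scalings are computed on the listed peaks, which were chosen for change.

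With coding-transcript exons, 95.8% of block bases were exonic and 2 of the 1-block peaks lay mostly outside exons, a setting chosen after seeing the data, as was the block for medians. DRACH was in 99.4% of spliced peaks with a 200-nt window and in 100% over all block bases, RRACH in 86.8% and GGAC in 43.9%. For 1-block peaks a 200-nt window and all bases gave 100% and GGAC 38.5%. The 3 pools per genotype and input counts near 1 limit single peaks.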

Other observations

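Of the 864 peaks without an intronic centre, 123 also had more than 1 block, so crossing a junction was not particular to the intronic label. Enrichment fell at 60 of these 123 and rose at 6, with a median log2 change of -0.90, beside 55.6% lower, 2.27% higher and a median of -1.02 over the whole list, and in 36 of them the genomic centre lay outside every block. The table gives 51 peaks no class for the centre, and in 17 of these it lay outside every block.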
